A study of Homo sapiens with 6 samples.

Results

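The genes described here are 46 genes of glycolysis and of the response to low oxygen, taken by symbol from a table of 16551 protein-coding genes. They comprise the HIF subunits and their oxygen sensors, the glucose transporters and glycolytic enzymes, the enzymes and carriers that decide the fate of pyruvate and lactate, and a set of other genes known to be induced by hypoxia. All 46 symbols were found, and 45 of them passed the low-count filter. CA12, a carbonic anhydrase, did not pass, with counts of 10, 11 and 9 in the si-YTHDF2 libraries and 0, 3 and 22 in the NC libraries.

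The data are RNA-seq counts from 6 libraries of HaCaT, a single line of immortalised human keratinocytes. Per the labels, 3 libraries came from cells given si-YTHDF2, a small interfering RNA against the reader of N6-methyladenosine (m6A) YTHDF2, and 3 from cells given the control NC, named si-NC in the design text. The series title places the comparison in psoriasis, proliferation, inflammation and Wnt signaling. The sources used here give neither the siRNA sequence nor its dose or the time after transfection. They do not say either that the replicates were separate cultures, so the error behind each p-value may be technical.

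Library totals were 19803707 to 21481302 counts in si-YTHDF2 and 20312740 to 22698069 in NC. YTHDF2 itself (ENSG00000198492, chromosome 1, 28736621 to 28769775, plus strand, GRCh38) stood at 43.0, 48.4 and 43.5 CPM (counts scaled to the size of the library) in si-YTHDF2 and 74.6, 77.5 and 83.8 CPM in NC, which left 57.1% of the NC mean (exact two-sided permutation test, p = 0.1, the smallest that 3 libraries against 3 allow). The 9 keratinocyte markers summed to 5559 to 5970 CPM in si-YTHDF2 and 5479 to 5742 CPM in NC. KRT5 weighed most in this sum, with means of 2384 CPM in si-YTHDF2 and 2029 CPM in NC. By the edgeR test described below, 2 of the 9 were higher in si-YTHDF2, 4 lower and 3 not called. That is 66.7% called, beside 51.2% of all tested genes, so the sum covers changes in both directions. KRT14, a defining basal keratin singled out after its values were seen, had only 38 to 48 counts in si-YTHDF2 and 12 to 98 in NC. Transcripts of blood cells moved with the groups. Their source was not tested. For no gene described here can a difference tied to that source be told apart from the siRNA. The summed level of the 18 erythroid markers in the table was 1551 to 1783 CPM in si-YTHDF2 and 61.2 to 62.6 CPM in NC, where 7 of the 18 had no count in any library, as none did across the si-YTHDF2 libraries. The 12 leukocyte and platelet markers summed to 22.1 to 23.5 CPM in si-YTHDF2 and 4.07 to 5.13 CPM in NC, where 1 of the 12 had no count in any library. Of the 6 that passed the filter, 5 rose and 1 (CD14) fell, 100% called beside 51.2% of all tested genes. The fibroblast markers summed to 34.9 to 41.9 CPM and 26.0 to 78.1 CPM, with NC replicate 1 the highest, and the melanocyte markers to 22.9 to 23.9 CPM and 25.02 to 29.6 CPM. In bulk RNA, fewer cells of a type and less RNA per cell cannot be told apart.

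Glycolysis splits glucose into pyruvate in the cytosol. Glucose enters through SLC2A transporters and is trapped by hexokinase, and the pyruvate formed is either reduced to lactate and exported or oxidised in mitochondria by pyruvate dehydrogenase. When oxygen is scarce, prolyl hydroxylases of the EGLN family can no longer mark HIF alpha subunits for VHL-dependent destruction, and the stabilised HIF dimer binds a short core sequence near genes of glucose uptake, glycolysis, vessel growth and mitochondrial turnover. HIF is controlled mainly at the protein level, and keratinocytes of the epidermis, which has no vessels of its own, are known for high glycolytic flux and for GLUT1, the product of SLC2A1.

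Glucose transporters and glycolytic enzymes were mostly higher in si-YTHDF2, from uptake through lactate dehydrogenase, while the HIF alpha subunits were not called and the other hypoxia-inducible genes divided. Of the 45 tested members 24 rose, 5 fell and 16 did not pass the test (quasi-likelihood test of edgeR, p adjusted by Benjamini-Hochberg, called under 0.05). Over the whole data set 51.2% of the 12264 tested genes were called, 26.1% higher and 25.2% lower, so calls as such are common in this comparison. The median log2 fold change of the tested members was 0.33, beside 0.01 over all tested genes. The direction was uneven by role. Among the 19 glucose transporters and catalytic enzymes through lactate dehydrogenase, without the regulatory PFKFB enzymes, 14 rose and 1 fell, with a median of 0.55. Among the 9 genes of pyruvate and lactate handling the median was -0.05, and among the 12 tested genes of the remaining hypoxia-inducible set it was -0.03. Changes of at least 2-fold were seen for 7 members, all higher, where 3.53% of tested genes were at least 2-fold higher and called, and 3.86% at least 2-fold lower and called.

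**Figure D1:**
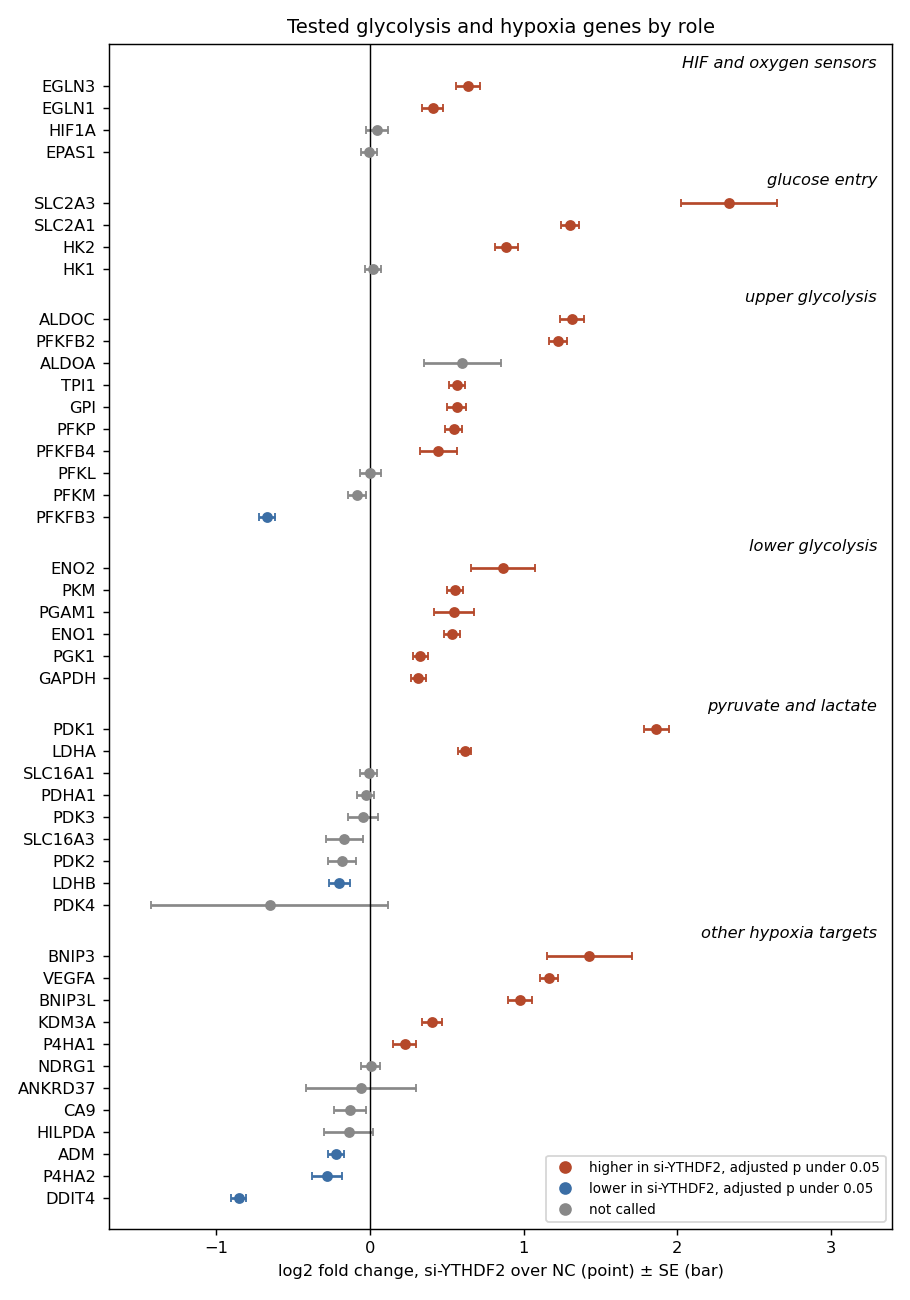
Log2 fold changes of the 45 tested genes, si-YTHDF2 over NC, by role; points are edgeR estimates, bars 1 standard error, and colours the call at an adjusted p under 0.05. All 6 genes of lower glycolysis lie to the right of 0, from 0.31 to 0.87, while the other hypoxia targets run from -0.85 (DDIT4) to 1.43 (BNIP3).

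Promoters of these genes often hold the core that HIF binds, and the promoters of LDHA and ALDOC, which rose, are shown beside those of CA9, which was not called, and DDIT4, which fell, because the core occurs in all 4. Each line gives 300 bases, from 250 before to 50 after the RefSeq transcription start (build GRCh38.p14), 5′ to 3′ on the strand of the gene. Capitals mark ACGTG or GCGTG on either strand (CACGT and CACGC on the strand shown). CACGTG holds ACGTG on both strands and is counted for each, and it is also the E-box that MYC and MondoA family factors bind. The windows are LDHA at chr11:18394313-18394612 (plus strand), ALDOC at chr17:28576846-28577145 (minus strand), CA9 at chr9:35673678-35673977 (plus strand) and DDIT4 at chr10:72273674-72273973 (plus strand).
LDHA: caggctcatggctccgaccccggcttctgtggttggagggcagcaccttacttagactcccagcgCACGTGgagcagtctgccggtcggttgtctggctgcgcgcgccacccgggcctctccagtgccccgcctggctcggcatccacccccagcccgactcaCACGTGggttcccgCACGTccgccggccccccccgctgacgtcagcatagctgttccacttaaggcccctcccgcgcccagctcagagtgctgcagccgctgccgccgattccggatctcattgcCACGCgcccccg
ALDOC: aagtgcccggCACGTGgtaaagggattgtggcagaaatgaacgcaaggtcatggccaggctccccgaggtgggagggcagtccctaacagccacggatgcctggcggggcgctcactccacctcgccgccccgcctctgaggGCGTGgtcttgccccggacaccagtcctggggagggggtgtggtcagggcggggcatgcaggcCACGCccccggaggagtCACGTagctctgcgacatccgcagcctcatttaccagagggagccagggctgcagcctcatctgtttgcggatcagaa
CA9: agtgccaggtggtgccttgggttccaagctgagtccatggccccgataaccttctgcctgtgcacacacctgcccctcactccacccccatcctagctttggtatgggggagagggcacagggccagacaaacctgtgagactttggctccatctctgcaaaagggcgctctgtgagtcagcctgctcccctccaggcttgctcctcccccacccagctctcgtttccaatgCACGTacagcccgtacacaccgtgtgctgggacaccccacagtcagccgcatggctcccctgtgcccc
DDIT4: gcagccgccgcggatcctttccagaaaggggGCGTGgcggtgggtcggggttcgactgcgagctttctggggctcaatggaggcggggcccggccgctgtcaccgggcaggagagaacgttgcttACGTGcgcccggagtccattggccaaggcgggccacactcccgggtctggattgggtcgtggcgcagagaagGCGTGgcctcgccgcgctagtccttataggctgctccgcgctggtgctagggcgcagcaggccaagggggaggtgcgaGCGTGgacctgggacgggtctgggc

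LDHA held 6 such cores, ALDOC 5, CA9 1 and DDIT4 4. Of the 39 members with a window in the RefSeq table, 35 had at least 1 core in at least 1 window, against 52.4% of the 27305 genes of that table, which include noncoding genes and differ in their number of windows. By window the share was 66.7% of 69 for the members and 48.4% of 35116 for the table. The core was found in 18 of 20 members that rose, in 4 of 5 that fell and in 12 of 13 that were not called. These groups also differ in their number of windows per gene. By window the share was 78.6% of 28 for those that rose and 83.3% of 6 for those that fell. For those not called it was 52.9% of 34. With a core in 35 of the 39 members and only 5 that fell, its presence could hardly separate the members by direction, and no conclusion is drawn.

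Neither HIF alpha subunit was called at the RNA level. HIF1A stood at 220.0, 181 and 184 CPM in si-YTHDF2 and 189, 197 and 182 CPM in NC, a log2 fold change of 0.04 ± 0.07 (SE). The groups overlapped, and si-YTHDF2 replicate 1 was the highest of the 6 (adjusted p = 0.623, edgeR). EPAS1, which encodes HIF-2 alpha, stood at 159, 169 and 168 CPM in si-YTHDF2 and 162, 168 and 167 CPM in NC, with a log2 fold change of -0.01 ± 0.05 (SE; adjusted p = 0.940, edgeR). Per kilobase of joined exons HIF1A made up 62.5% of the pair in si-YTHDF2 and 61.8% in NC.

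The oxygen-sensing prolyl hydroxylases EGLN3 and EGLN1, which are themselves HIF targets, rose. EGLN3 stood at 32.7, 29.3 and 32.4 CPM in si-YTHDF2 and 20.4, 20.2 and 20.02 CPM in NC, 1.56-fold higher (log2 fold change 0.64 ± 0.08; adjusted p = 1.58e-05, edgeR). EGLN1, the main hydroxylase in normal oxygen, stood at 77.2, 71.0 and 67.0 CPM in si-YTHDF2 and 52.3, 51.7 and 58.1 CPM in NC, 1.33-fold higher (adjusted p = 2.48e-04, edgeR). In neither gene did the groups overlap, as was so for 58.5% of all tested genes. Of 12 tested further components of the pathway 4 rose, 2 fell and 6 were not called. The third hydroxylase EGLN2 rose by 1.57 on the log2 scale (8.44 ± 0.53 CPM in si-YTHDF2 and 2.85 ± 0.26 CPM in NC, SD, n = 3 each). The coactivator EP300 rose by 0.39, and ARNT, the partner subunit that every HIF alpha needs, fell by 0.38.

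Glucose entry had the highest median log2 fold change of the 6 roles, 1.10. SLC2A1 stood at 113, 117 and 122 CPM in si-YTHDF2 and 46.2, 47.8 and 48.9 CPM in NC, so that each si-YTHDF2 library was far above each NC library. The fold was 2.47 (log2 fold change 1.30 ± 0.06, SE; adjusted p = 6.97e-10, edgeR). SLC2A3, a high-affinity transporter, had 69, 61 and 45 counts in si-YTHDF2 and 12, 12 and 10 in NC, or 2.72 ± 0.43 and 0.54 ± 0.08 CPM (SD, n = 3 each). It rose 5.04-fold (adjusted p = 3.32e-05, edgeR), the largest change among the tested members, but made up only 1.75% of the summed per-kilobase level of the pair in si-YTHDF2 and 0.858% in NC. SLC2A3 is abundant in leukocytes and platelets, whose marker sums above also separated the groups, and the part of that RNA in the SLC2A3 counts was not tested. It also shares near-identical sequence with SLC2A14, which had at most 1 count in a library.

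Hexokinase traps glucose as its phosphate. HK2, the inducible isozyme, stood at 40.2, 42.1 and 40.1 CPM in si-YTHDF2 and 21.1, 22.8 and 22.3 CPM in NC, 1.85-fold higher (adjusted p = 4.17e-07, edgeR). HK1, the constitutive isozyme, averaged 177 ± 8.64 CPM and 175 ± 2.40 CPM (SD, n = 3 each) and was not called (log2 fold change 0.02 ± 0.05, SE; adjusted p = 0.770, edgeR). HK2 made up 19.3% ± 0.63 of the per-kilobase level of the pair in si-YTHDF2 and 11.6% ± 0.50 in NC (SD, n = 3 each). HK1 remained the more abundant of the pair in every library.

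In upper glycolysis 6 of 10 genes rose, 1 fell and 3 were not called. The share called was 70.0%, where it was 51.2% over all tested genes. GPI, which isomerises glucose phosphate, averaged 384 ± 31.4 CPM in si-YTHDF2 and 260 ± 13.9 CPM in NC (SD, n = 3 each), and TPI1, which interconverts the triose phosphates, averaged 653 ± 33.3 and 442 ± 18.4 CPM, both 1.48-fold higher. Phosphofructokinase is the committed step, and its isozymes parted. PFKP, the platelet-type subunit, stood at 222, 239 and 237 CPM in si-YTHDF2 and 166, 155 and 158 CPM in NC (log2 fold change 0.54 ± 0.05; adjusted p = 1.58e-06, edgeR). The liver-type PFKL had a log2 fold change of 0.00 ± 0.07 (adjusted p = 0.968) and the muscle-type PFKM of -0.08 ± 0.06 (adjusted p = 0.246), with overlapping groups for each. PFKP made up 70.5% of the per-kilobase level of the 3 subunits in si-YTHDF2 and 61.3% in NC.

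The PFKFB enzymes set the level of the sugar bisphosphate that activates phosphofructokinase, and their transcripts moved in opposite directions. PFKFB2, known from heart, stood at 175, 152 and 164 CPM in si-YTHDF2 and 72.04, 69.7 and 68.2 CPM in NC, 2.34-fold higher (log2 fold change 1.22 ± 0.06, SE; adjusted p = 2.78e-09, edgeR). PFKFB3, the isozyme with the strongest kinase activity and itself a hypoxia-inducible gene, stood at 89.5, 90.2 and 92.3 CPM in si-YTHDF2 and 145, 142 and 145 CPM in NC, 1.59-fold lower (log2 fold change -0.67 ± 0.05, SE; adjusted p = 1.42e-07, edgeR). Neither pair of groups overlapped. PFKFB4, also hypoxia-inducible, was low at 10.2 ± 0.57 and 7.48 ± 0.18 CPM (SD, n = 3 each) and rose by 0.45 (adjusted p = 0.00789, edgeR). Among the 3 enzymes PFKFB3 made up 45.6% of the per-kilobase level in si-YTHDF2 and 74.5% in NC, and PFKFB2 49.2% and 21.7%, so PFKFB2 was the more abundant of these 2 in si-YTHDF2 and PFKFB3 in NC. The same order held in CPM without division by length.

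Aldolase splits the sugar into 2 trioses. ALDOC, the brain-type isozyme and a HIF target, stood at 83.5, 97.7 and 93.8 CPM in si-YTHDF2 and 33.3, 37.6 and 39.5 CPM in NC, 2.49-fold higher (log2 fold change 1.31 ± 0.08, SE; adjusted p = 1.30e-08, edgeR). The table lists ALDOA under 2 identifiers, which overlap on the plus strand of chromosome 16 in the GENCODE 29 annotation. The entry that comes up first, ENSG00000285043, had 75, 76 and 75 counts in si-YTHDF2 and 40, 62 and 45 in NC and was not called (log2 fold change 0.60 ± 0.25, SE; adjusted p = 0.0599, edgeR). It passed the threshold when NC replicate 2 was left out (0.87, adjusted p = 0.0144), with library totals (0.0382), with a mean count of at least 50 (0.0389) and with limma-voom (0.0330), and its adjusted p ran from 0.0144 to 0.180 over the alternatives. The second entry, ENSG00000149925, had 403 to 511 counts in si-YTHDF2 and 328 to 343 in NC and rose by 0.45 (adjusted p = 0.00177, edgeR). The treatment of reads shared by the overlapping entries is not given here, so the level of ALDOA, and the balance of ALDOA and ALDOC, cannot be read from this table.

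**Figure D2:**
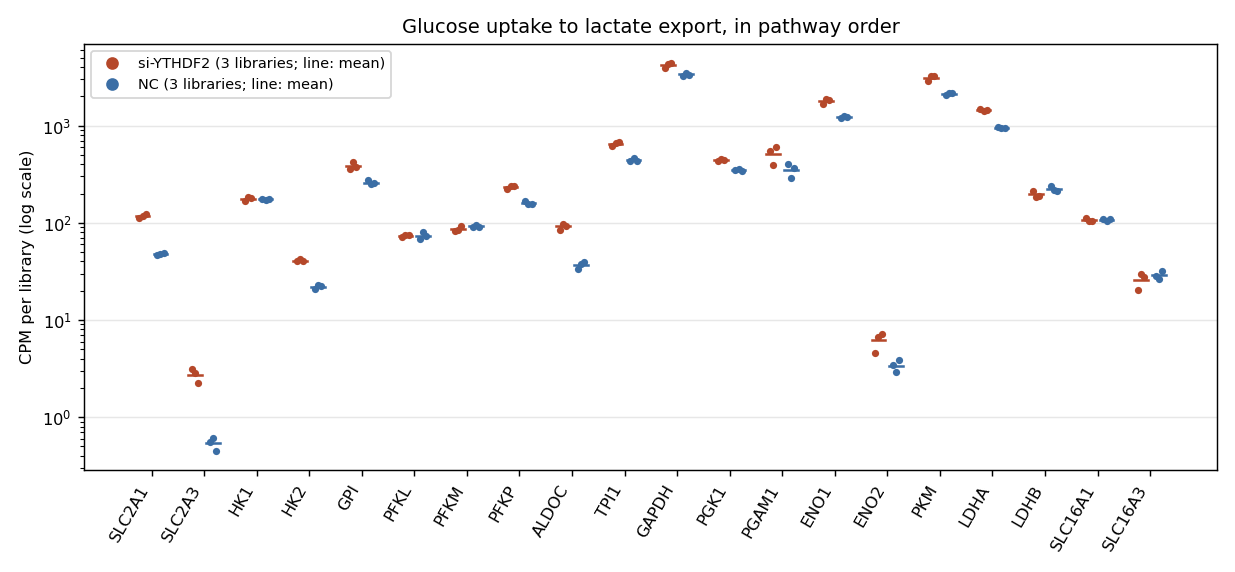
CPM in each library (log axis) for transporters and enzymes in pathway order, ALDOA left out; points are libraries and lines group means, with si-YTHDF2 left of NC. Every si-YTHDF2 library lies above every NC library for GAPDH, PKM, ENO1, TPI1 and LDHA, whereas HK1, PFKL and SLC16A1 overlap.

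All 6 genes of lower glycolysis rose, where 26.1% of all tested genes were called higher. GAPDH, the dehydrogenase that makes NADH and is widely used as a reference gene, stood at 3897, 4286 and 4377 CPM in si-YTHDF2 and 3260, 3487 and 3357 CPM in NC. The groups did not overlap, and the log2 fold change was 0.31 ± 0.05 (SE; adjusted p = 1.37e-04, edgeR), the smallest among the 6. By CPM per kilobase it ranked at place 18 of the table in si-YTHDF2 and place 28 in NC. PGK1, which makes the first ATP of the pathway, averaged 442 ± 11.3 CPM in si-YTHDF2 and 352 ± 7.33 CPM in NC (SD, n = 3 each), 1.26-fold higher. PGAM1, the mutase, stood at 547, 393 and 598 CPM in si-YTHDF2 and 399, 290 and 365 CPM in NC. Replicate 2 was the lowest of its group in both, and the groups overlapped by that library (log2 fold change 0.54 ± 0.13, SE; adjusted p = 0.00347, edgeR).

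ENO1, the general enolase, stood at 1674, 1862 and 1838 CPM in si-YTHDF2 and 1207, 1272 and 1233 CPM in NC, 1.45-fold higher (adjusted p = 1.15e-06, edgeR). ENO2, the neuronal enolase and a HIF target, was higher by 0.87 ± 0.21 (SE) from low levels of 6.20 and 3.39 CPM (adjusted p = 0.00338, edgeR). PKM, pyruvate kinase, stood at 2876, 3250 and 3219 CPM in si-YTHDF2 and 2052, 2162 and 2157 CPM in NC, 1.47-fold higher (adjusted p = 1.10e-06, edgeR). Gene counts do not separate its M1 and M2 splice forms. Most of these enzymes have processed pseudogenes, and the treatment of reads that match several places is not given here, so their counts carry that uncertainty. The 17 enzymes from hexokinase to lactate dehydrogenase together took 1.33%, 1.39% and 1.4% of all counts in si-YTHDF2 and 0.962%, 0.972% and 0.961% in NC.

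Lactate dehydrogenase subunits went opposite ways. LDHA, the subunit of lactate-forming tissues, whose promoter is shown above, stood at 1497, 1419 and 1450.4 CPM in si-YTHDF2 and 959, 954 and 936 CPM in NC, 1.53-fold higher with no overlap (log2 fold change 0.62 ± 0.04, SE; adjusted p = 7.68e-08, edgeR). LDHB, the heart-type subunit, stood at 214, 183 and 190.1 CPM in si-YTHDF2 and 241, 220.2 and 213 CPM in NC, and it fell by 0.20 on the log2 scale (SE 0.07; adjusted p = 0.0220, edgeR), with groups that overlapped. This small decrease was not called without si-YTHDF2 replicate 2 (adjusted p = 0.110), si-YTHDF2 replicate 3 (0.0677) or NC replicate 1 (0.112), nor when scaled by library totals (0.142), and its adjusted p spanned 7.68e-04 to 0.142 in all. LDHA made up 78.2% of the per-kilobase level of the pair in si-YTHDF2 and 67.0% in NC. The size of these shares and of their difference depends on the lengths used, joined exons of 6210 bases for LDHA and 2983 for LDHB.

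SLC16A1 and SLC16A3, the lactate carriers among the members, were not called, and their groups overlapped. SLC16A1, known as MCT1, stood at 112, 104 and 104 CPM in si-YTHDF2 and 110, 104 and 108 CPM in NC (log2 fold change -0.01 ± 0.06, SE; adjusted p = 0.910, edgeR). SLC16A3, known as MCT4 and hypoxia-inducible, stood at 20.5, 29.4 and 27.9 CPM in si-YTHDF2 and 28.6, 26.7 and 32.0 CPM in NC (-0.17 ± 0.12, SE; adjusted p = 0.267, edgeR).

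At the entry of pyruvate into mitochondria a single kinase stood out. PDK1, which phosphorylates and switches off pyruvate dehydrogenase and is a classic HIF target, stood at 35.2, 35.3 and 36.2 CPM in si-YTHDF2 and 9.42, 9.86 and 10.03 CPM in NC. It was 3.64-fold higher (log2 fold change 1.86 ± 0.08, SE; adjusted p = 6.07e-10, edgeR), and its log2 fold change ran from 1.84 to 1.93 over the alternatives. PDK2 (-0.18 ± 0.09, adjusted p = 0.107) and PDK3 (-0.05 ± 0.10, adjusted p = 0.735) were not called (edgeR; SE). PDK4, the starvation-induced kinase, had 31, 14 and 25 counts in si-YTHDF2 and 95, 14 and 2 in NC, and its log2 fold change of -0.65 ± 0.77 (SE, adjusted p = 0.506) became 1.48 without NC replicate 1 (adjusted p = 0.0632, edgeR, the lowest of a span that reached 0.968). PDK1 made up 25.9% of the per-kilobase level of the 4 kinases in si-YTHDF2 and 8.09% in NC, a gain of 17.8 percentage points that was 10.6 by the length of the longest coding transcript and 30.0 without division by length. PDHA1, the subunit they phosphorylate, averaged 133 ± 5.20 and 136 ± 5.61 CPM (SD, n = 3 each) and was not called (-0.03 ± 0.05, SE; adjusted p = 0.717, edgeR).

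**Figure D3:**
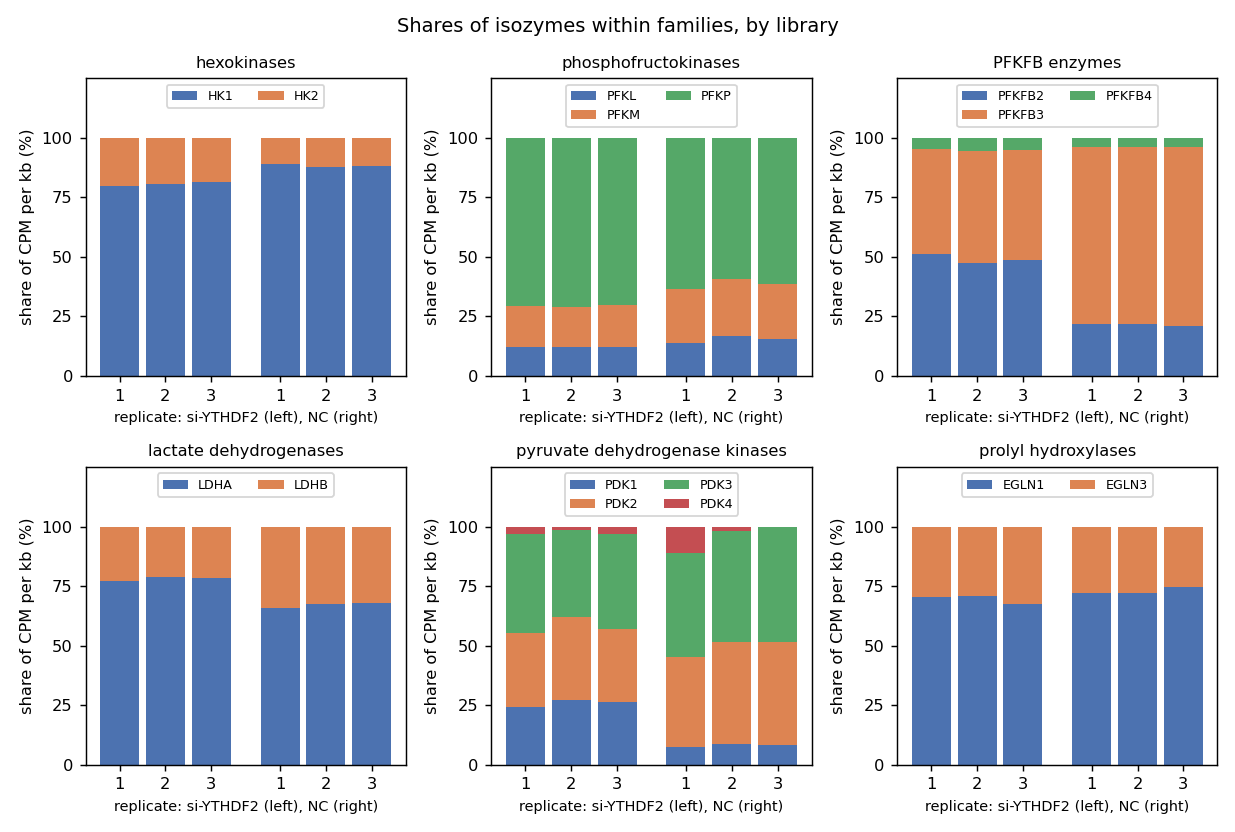
Share of each isozyme in the summed CPM per kilobase of joined exons of its family, as stacked bars from 0 to 100% for each library, si-YTHDF2 replicates left of NC replicates. The PFKFB2 share averages 49.2% in si-YTHDF2 and 21.7% in NC, the PDK1 share 25.9% and 8.09%, and the LDHA share 78.2% and 67.0%. The size of the shares and of their differences depends on the lengths used.

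Around the dehydrogenase, 8 of 13 genes of pyruvate entry, pyruvate oxidation and monocarboxylate transport rose and 2 fell. Singled out after their values were seen, the 2 that fell were the carrier SLC16A7 (-0.49; adjusted p = 3.03e-04, edgeR) and the carrier partner EMB. EMB fell by 0.22 (adjusted p = 0.0269, edgeR) with overlapping groups, while BSG, another carrier partner, rose by 0.32 (adjusted p = 5.68e-04, edgeR). The share called was 76.9%, beside 51.2% of all tested genes. PDPR, a regulator of the phosphatase that opposes the PDK enzymes and a gene with near-identical pseudogene copies, rose by 0.55, with 169 ± 4.41 CPM in si-YTHDF2 and 115 ± 1.44 CPM in NC (SD, n = 3 each; adjusted p = 8.74e-07, edgeR). MPC1, a subunit of the mitochondrial pyruvate carrier, rose by 0.89, and PC, pyruvate carboxylase, by 0.69. Among 12 tested glycolytic enzymes and transporters beyond the members, 4 rose and 4 fell, which is 66.7% called. SLC2A6 rose by 1.59 and TIGAR, a phosphatase that lowers the activator of phosphofructokinase, by 0.65, while the phosphoglucomutase-family gene PGM2 fell by 0.44.

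Of 4 genes of glucose sensing by MondoA, which restrains glucose uptake, 2 fell, 1 rose and 1 was not called. TXNIP, a MondoA target that promotes internalisation of GLUT1, averaged 128 ± 7.17 CPM in si-YTHDF2 and 389 ± 13.1 CPM in NC (SD, n = 3 each), and fell by 1.60 on the log2 scale (adjusted p = 6.52e-11, edgeR). ARRDC4, its relative, fell by 0.86 (8.59 ± 0.46 and 15.5 ± 1.73 CPM; adjusted p = 4.09e-05, edgeR). MLXIP, which encodes MondoA, rose by 0.46.

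Other hypoxia-inducible genes split into 5 that rose, 3 that fell and 4 that were not called. That is 66.7% called, beside 51.2% of all tested genes. VEGFA, the growth factor of blood vessels, stood at 108, 107 and 113 CPM in si-YTHDF2 and 48.0, 47.9 and 50.3 CPM in NC, 2.24-fold higher (log2 fold change 1.16 ± 0.06, SE; adjusted p = 1.71e-09, edgeR). BNIP3L, a receptor for the removal of mitochondria, stood at 87.4, 80.2 and 70.3 CPM in si-YTHDF2 and 42.0, 38.7 and 40.1 CPM in NC, 1.97-fold higher (adjusted p = 2.47e-07, edgeR). BNIP3, its relative, which has a pseudogene copy, was low, with 102, 98 and 99 counts in si-YTHDF2 and 25, 29 and 57 in NC, and rose 2.69-fold (log2 fold change 1.43 ± 0.28, SE; adjusted p = 7.52e-04, edgeR). NC replicate 3 had the highest NC count of BNIP3.

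BNIP3L is also strongly expressed in maturing red cells, and the hemoglobin gene HBB averaged 1412 ± 119.5 CPM in si-YTHDF2 and 46.6 ± 1.70 CPM in NC (SD, n = 3 each). The part of red-cell RNA in the BNIP3L counts was not tested. Of the 9 erythroid markers that passed the filter, 8 rose and 1 fell, 100% called beside 51.2% of all tested genes. Singled out after its values were seen, BPGM, the enzyme that makes the red-cell regulator of oxygen release, fell by 0.36 (adjusted p = 0.0234, edgeR). BPGM averaged 9.91 ± 0.45 CPM in si-YTHDF2 and 12.7 ± 1.62 CPM in NC (SD, n = 3 each). The part of red-cell RNA in its counts was not tested either. HK3, a hexokinase of leukocytes singled out in the same way, had 14, 20 and 8 counts in si-YTHDF2 and 0, 3 and 0 in NC and lay below the filter.

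KDM3A, an oxygen-dependent histone demethylase, averaged 56.3 ± 3.61 CPM in si-YTHDF2 and 42.6 ± 1.12 CPM in NC (SD, n = 3 each), 1.32-fold higher (adjusted p = 2.04e-04, edgeR). The collagen prolyl hydroxylases parted slightly: P4HA1 rose by 0.23 (SE 0.07; adjusted p = 0.0187, edgeR) and P4HA2 fell by 0.28 (SE 0.10; adjusted p = 0.0277, edgeR). The groups overlapped for P4HA2. The call of P4HA1 was lost without NC replicate 2 (adjusted p = 0.0658), and its adjusted p spanned 5.57e-04 to 0.0658 in all. The call of P4HA2 was lost without si-YTHDF2 replicate 1 (0.0890), si-YTHDF2 replicate 3 (0.0959), NC replicate 1 (0.101) or NC replicate 3 (0.0698) and with library totals (0.0867), and its lowest adjusted p over the alternatives was 0.00660.

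DDIT4, also called REDD1, an inhibitor of mTORC1 signaling that hypoxia and other stresses induce, showed the largest decrease among the called members. It stood at 341, 375 and 368 CPM in si-YTHDF2 and 638, 663 and 658 CPM in NC, 1.81-fold lower with no overlap (log2 fold change -0.85 ± 0.05, SE; adjusted p = 1.38e-08, edgeR). ADM, the vasodilator peptide adrenomedullin, stood at 145, 144 and 151 CPM in si-YTHDF2 and 174, 176 and 164 CPM in NC and fell by 0.22 (adjusted p = 0.00271, edgeR). In neither gene did the groups overlap.

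Several genes widely used as markers of hypoxia were not called. CA9, a surface carbonic anhydrase, stood at 21.8, 18.9 and 23.9 CPM in si-YTHDF2 and 21.3, 26.1 and 23.3 CPM in NC (log2 fold change -0.13 ± 0.10, SE; adjusted p = 0.317, edgeR). NDRG1, a stress-induced gene, stood at 123, 134 and 143 CPM in si-YTHDF2 and 134, 132 and 133 CPM in NC (0.00 ± 0.06, SE; adjusted p = 0.962, edgeR). HILPDA, a lipid droplet protein, averaged 5.38 and 5.91 CPM (-0.14 ± 0.16), and ANKRD37, an ankyrin-repeat gene, 1.37 and 1.44 CPM (-0.06 ± 0.36), both with overlapping groups. At these levels the SE of ANKRD37 leaves differences of the size seen for KDM3A undetectable.

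**Figure D4:**
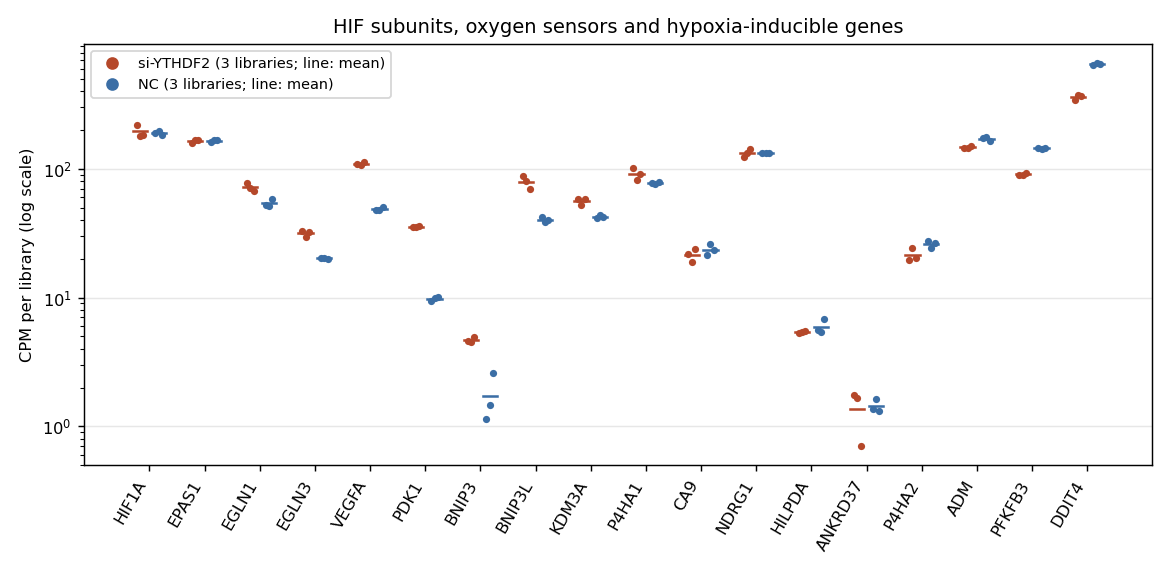
CPM in each library (log axis) for the HIF alpha subunits, the oxygen sensors and hypoxia-inducible genes, si-YTHDF2 left of NC, with lines at the group means. HIF1A and EPAS1 overlap, PDK1 and VEGFA lie 3.64-fold and 2.24-fold higher in si-YTHDF2, and PFKFB3 and DDIT4 lie lower in every si-YTHDF2 library.

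Rises and falls were also mixed in 28 tested hypoxia-inducible genes outside the members, of which 11 rose, 7 fell and 10 were not called, a share of 64.3% called beside the 51.2% of all tested genes. MAFF, a small MAF factor, rose by 0.86 on the log2 scale, and TFRC, the transferrin receptor, by 0.67. The median log2 fold change of the 28 was 0.04.

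Transcript composition was compared as a description, with no test. The longest coding transcript had a median GC content of 51.4% in the 24 that rose, 55.7% in the 5 that fell, 52.8% in the 16 that were not called and 48.3% over all tested genes. GGACT, the sequence most often methylated to m6A in mRNA, occurred at a median of 1.17, 1.59 and 1.20 sites per kilobase in these 3 groups of members and 0.93 over all tested genes. These are counts of letters in the transcript and not of methylated sites.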

How the data were processed

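RNA was measured in 3 si-YTHDF2 and 3 NC libraries of HaCaT cells, from rRNA-depleted total RNA per the labels. The authors deposited raw counts per gene, per the file headers, in columns whose names end in .Input. The labels name no immunoprecipitation, so these columns were read as plain RNA-seq libraries. The submitters' processing notes name the build hg38. The sources used here name no aligner or counter and do not say whether strand was used. A further 6 normalized columns were not used. Library totals were 19803707 to 22698069. Chi-square per gene was 3.73 to 14.1 within groups and 87.5 to 98.1 between them, so no library repeated another. Within si-YTHDF2 the pairs with replicate 1 gave 12.65 and 14.05 and the pair without it 3.73. The pairs within NC gave 5.051 to 5.765.

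The whole table was fitted with edgeR 4.0.16 (R 4.3.3): TMM factors, filterByExpr (12264 genes), quasi-likelihood test without covariates, Benjamini-Hochberg adjustment over all tested genes. The SE is the size of the log2 fold change over the square root of F. CPM uses TMM-scaled library sizes, and levels between genes are CPM per kilobase of joined exons (GENCODE 29, matched by identifier for 16546 genes). A symbol with 2 identifiers was read from its first entry in the table. Promoters came from RefSeq. The test was also run on simulated counts with a single fixed dispersion and few changed genes, unlike these data, so no error rate is taken from that run.

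The members, gene lists, families and rules were chosen with earlier results of these data known. Named genes are the 46 members, YTHDF2 and up to 3 genes with the smallest p in each further list. Same-numbered libraries of the 2 groups were not treated as pairs. Alternatives were RLE, upper-quartile and no composition factors, 2 other filters, DESeq2 1.42.0, limma-voom (limma 3.58.1), a replicate block, thresholds of 0.01 and 0.10, leaving out each library, and, added after seeing the data, removal of a trend with transcript length and GC content (mgcv 1.9.3), and another length for isozyme shares.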

Additional observations from a re-analysis of the deposited data

How the results depend on the processing

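Of the 29 called members 26 kept direction and call under each of the 15 alternatives of normalization, filter, test, block, left-out library and transcript trend that gave a value, and the exceptions were LDHB, P4HA1 and P4HA2. A filter at a mean count of 50 left out SLC2A3, ANKRD37 and PDK4, which have no value there. The count of members that rose was 24 or 25 at the 0.05 threshold, 23 at 0.01 and 25 at 0.10. The count that fell was 5, 3 with library totals, 3 at an adjusted p under 0.01, and 3 to 5 with a library left out (3 without si-YTHDF2 replicate 3 and 3 without NC replicate 1). Library totals shifted the calls of all genes to 3860 higher and 2433 lower, beside 3199 and 3086, with a median log2 fold change of 0.076.

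Some uncalled members changed sign. With library totals EPAS1 was 0.06, SLC16A1 0.057, PDK3 0.021, PDHA1 0.039 and ANKRD37 0.010. PFKL was -0.0027 with RLE factors and -0.0028 with DESeq2, NDRG1 was -0.0024 with either and -0.0 with limma-voom, where PDK4 was 0.58. With the length and GC trend removed, chosen after seeing the data, HK1 was -0.048, PFKL -0.017 and NDRG1 -0.059, and HIF1A (0.12, adjusted p = 0.0258), PFKM (-0.15, adjusted p = 0.0108) and PDK2 (-0.23, adjusted p = 0.0335) were called. With a library left out, log2 fold changes ran from -0.045 to 0.097 for HIF1A, -0.023 to 0.027 for EPAS1, -0.0056 to 0.065 for HK1, -0.057 to 0.069 for PFKL, -0.042 to 0.010 for SLC16A1, -0.12 to 0.042 for PDK3, -1.22 to 1.48 for PDK4, -0.058 to 0.0022 for PDHA1, -0.054 to 0.065 for NDRG1 and -0.27 to 0.25 for ANKRD37. The cause was not tested.

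With the replicate block 29 members were called, 24 higher and 5 lower. Deviations from the group means correlated at 0.055, 0.052 and 0.035 between same-numbered libraries, each the best match of its number, a hint from the data and not from the design.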
